A study of Mus musculus with 6 samples.

Results

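Non-classical monocytes were picked out of mouse splenocytes by their RNA, as 187 of 20161 cells that passed the limits on cell quality, out of 29005 barcodes. A member had from 300 to 5000 genes, at most 10% mitochondrial RNA, at least 1 UMI (unique molecular identifier, 1 captured molecule) of Csf1r, at least 2 of the 4 genes Ace, Treml4, Adgre4 and Eno3, and no UMI of Vcam1 or Cd79a. These measured values chose the members, so the levels of those genes are a description of the choice and not a result. Splenocytes came from male C57BL/6 mice given 100 µL tail vein injections 8 times over 24 days, young mice of 3 months with saline, aged mice of 20 months with saline and aged mice of 20 months with PF4 (platelet factor 4, a chemokine of platelets) at 5 µg/mL. RNA and surface protein were read in the same cells by CITE-seq, in which a panel of 34 antibodies with DNA tags is counted beside the RNA. The cells of all mice of a group were pooled before labelling and read as 1 library, so variation between mice cannot be seen. The barcode suffix separates 3 libraries that no label, header or methods text used here ties to a group, and they are called libraries 1, 2 and 3. No group was therefore compared and no p-value was computed; all intervals are exact 95% intervals for counting error alone.

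Monocytes are blood and spleen leukocytes that need signalling through the Csf1r receptor. Classical monocytes carry much Ly-6C protein, leave the bone marrow through the chemokine receptor Ccr2 and enter inflamed tissue, whereas non-classical monocytes carry little Ly-6C and much Cx3cr1, patrol the inner wall of blood vessels and clear debris from it. In mice, non-classical monocytes are thought to arise largely from classical ones, and the orphan nuclear receptor Nr4a1 is needed for them. The spleen holds both kinds beside red pulp macrophages, which recycle iron from old red cells, and conventional dendritic cells, which present antigen to T cells.

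The members were spread over the 3 libraries as 60, 53 and 74 cells. They made up 1.43% (1.09 to 1.84) of the kept cells of library 1, 0.706% (0.529 to 0.922) of library 2 and 0.876% (0.688 to 1.10) of library 3. The share was higher in library 1 than in library 2, with intervals that did not overlap, while those of libraries 2 and 3 did. Cells chosen as classical monocytes followed the same order at 1.36%, 0.612% and 0.615%. The part that non-classical cells took of the 2 kinds of monocyte was 51.3% (41.9 to 60.6), 53.5% (43.2 to 63.6) and 58.7% (49.6 to 67.4) in libraries 1, 2 and 3, with intervals that all overlapped.

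Of the kept cells, 1155 had a Csf1r UMI, 378 of these had 2 or more of the 4 genes, 283 of those had no Vcam1 UMI and 187 also had no Cd79a UMI. Among the members 59 had 2 of the 4 genes, 67 had 3 and 61 had all 4. Ace was seen in 173 members, Adgre4 in 171, Treml4 in 132 and Eno3 in 87, and 37 members met the limit through Ace and Adgre4 alone. The median depth of a member was 5180 UMIs (899 to 21578) and 2133 genes, with library medians of 5023, 6495 and 4931 UMIs and library totals of 353806, 363336 and 435366 UMIs. Barcode sequences that occurred under more than 1 suffix numbered 68, and 1 of them was a member. A doublet caller marked 7 members (3.74%) against 2.33% of kept cells, and the members it marked were kept.

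The nearest cells were taken as 155 classical monocytes (57, 46 and 52), which passed the same limits on quality, Csf1r, Vcam1 and Cd79a, had 2 or more of Ly6c2, Ccr2, Fn1, F13a1 and Vcan, and were not members. Their median depth of 8829 UMIs exceeded that of the members. Red pulp macrophages (233 cells), conventional dendritic cells (152) and B cells (10956, median 3236 UMIs) were chosen by their own genes, the last as cells that should lack monocyte RNA. Since both kinds of monocyte were chosen by RNA, each gene was compared by size alone. A gene was called higher or lower where its CPM (counts per 1000000 RNA UMIs, with counts summed over cells) differed at least 2-fold in the same direction in each of the 3 libraries and the pooled intervals did not overlap.

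Of 7282 genes with 30 or more counts over both kinds of monocyte, 124 (1.7%) were higher and 50 (0.687%) lower in non-classical monocytes. Without the genes that chose either kind, 120 of 7272 were higher and 45 lower. Leaving out library 1, 2 or 3, so that the other 2 had to pass, gave 78, 78 and 80 lower genes and 138, 158 and 137 higher ones. The label was set beside listed genes outside the choice. The lists were drawn up with earlier results of these data known, and the classical monocytes were chosen by classical RNA. The counts that follow therefore describe the label and do not test it. Of 19 listed non-classical marker genes that took no part in the choice and could be compared, 14 were higher, none was lower, and the median log2 difference was 2.02, beside -0.01 over all genes compared. Of 9 listed classical marker genes outside the choice, 2 were lower and none higher, with a median of -1.23. The label held less well for 61 members that had 2 or more of the 5 classical genes. Their median Ly-6C antibody count of 497 was nearer to the 665 of classical monocytes than to the 211 of all members, and their CD11c median of 13 equalled that of classical monocytes. Ly6c2 was among the 5 genes, so the likeness in Ly-6C is partly set by how both sets were picked.

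**Figure D1:**
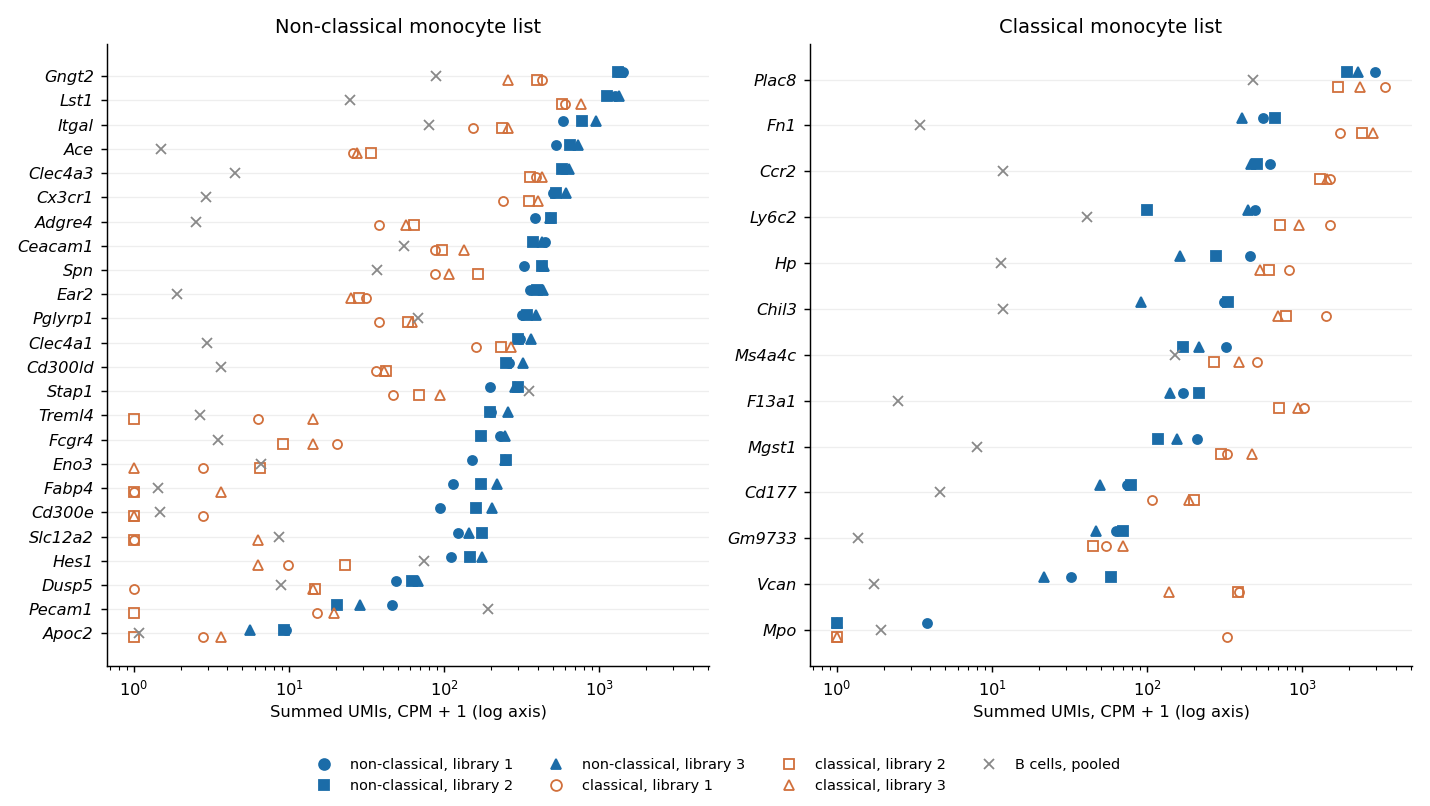
Summed RNA of listed non-classical (left) and classical (right) marker genes, as CPM + 1 on a log axis. Filled symbols are the non-classical and open symbols the classical monocytes of each library, and crosses the pooled B cells. The filled symbols of Ear2 lie between 356 and 432 CPM and the open ones between 23.9 and 30.1, and Ly6c2 is low in library 2 at 99.1 CPM.

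The marker of the label that the choice did not use, Cx3cr1, the receptor of fractalkine, stood at 503, 520 and 606 CPM in the 3 libraries and at 237, 351 and 404 CPM in classical monocytes. The libraries of the 2 kinds did not overlap, but the 1.73-fold difference stayed under the limit for a call. Both kinds were far above B cells, at 1.90 CPM. A Cx3cr1 UMI was found in 81.3% of members, 81.9% of classical monocytes and 0.429% of B cells at their own depths. After each cell was thinned to 2000 UMIs, which left 177 members, 140 classical monocytes and 1000 B cells, the shares were 59.9%, 47.1% and 0.3%.

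Ear2, a ribonuclease first known from eosinophils, was read at 356, 394 and 432 CPM in members and at 30.1, 27.2 and 23.9 CPM in classical monocytes, a pooled difference of 14.4-fold. The 3 libraries lay close together in each kind and nowhere near each other between kinds. Close copies of Ear2 lie beside it in the mouse genome, so its reads may have been split between copies or lost. The promoters of 4 genes that were high in members are shown, 2 outside the choice (Ear2 and Spn) and 2 of the choice itself (Adgre4 and Ace). Ear2, Adgre4 and Spn are the listed marker genes whose promoters held a match to either motif marked here, and Ace is shown as one without a match. Each runs from 250 bases before to 50 bases after a RefSeq transcript start on GRCm38.p6, 5′ to 3′ along the gene. Capitals mark a match to TTGCNNAA, a loose form of the site of C/EBP factors, or to CCCCACCC, a box read by KLF factors, on either strand.
Ear2, chr14:44102404-44102703, plus strand: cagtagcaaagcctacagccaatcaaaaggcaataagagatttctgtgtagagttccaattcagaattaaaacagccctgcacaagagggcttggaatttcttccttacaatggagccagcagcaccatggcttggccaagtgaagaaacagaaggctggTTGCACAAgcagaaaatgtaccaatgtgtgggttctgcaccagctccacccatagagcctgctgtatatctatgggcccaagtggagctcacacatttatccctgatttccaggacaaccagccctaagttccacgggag
Adgre4, chr17:55749734-55750033, plus strand: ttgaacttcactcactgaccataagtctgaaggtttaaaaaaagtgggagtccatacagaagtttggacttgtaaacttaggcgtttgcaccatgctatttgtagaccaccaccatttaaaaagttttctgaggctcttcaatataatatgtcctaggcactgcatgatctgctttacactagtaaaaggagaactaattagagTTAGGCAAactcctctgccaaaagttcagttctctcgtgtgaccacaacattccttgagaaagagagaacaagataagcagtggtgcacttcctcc
Spn, chr7:127137774-127138073, minus strand: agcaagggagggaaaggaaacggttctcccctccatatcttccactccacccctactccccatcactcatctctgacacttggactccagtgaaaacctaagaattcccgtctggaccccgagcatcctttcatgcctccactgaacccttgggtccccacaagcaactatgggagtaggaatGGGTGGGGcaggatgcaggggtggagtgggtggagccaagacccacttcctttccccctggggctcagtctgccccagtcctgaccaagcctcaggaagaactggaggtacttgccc
Ace, chr11:105967698-105967997, plus strand: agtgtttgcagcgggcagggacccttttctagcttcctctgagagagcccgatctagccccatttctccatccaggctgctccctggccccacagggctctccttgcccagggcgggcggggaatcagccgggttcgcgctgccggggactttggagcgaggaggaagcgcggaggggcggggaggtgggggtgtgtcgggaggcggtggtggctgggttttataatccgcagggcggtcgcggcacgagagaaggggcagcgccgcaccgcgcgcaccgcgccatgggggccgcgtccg

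Ear2 and Adgre4 each held 1 match to TTGCNNAA, starting at base 161 and base 205, and Spn held 1 to CCCCACCC at base 184. Of 16 listed non-classical marker genes with a promoter, 2 thus held TTGCNNAA and 1 held CCCCACCC. The Ace promoter shown held neither, nor did another listed start of the gene. Promoters were sought for 120 higher and 49 lower genes, a set other than that without the choosing genes, which held 45 lower ones. Promoters were found for 92 of these 120 higher genes. Of these, 11 held TTGCNNAA, close to the share over all genes, and 16 (17.4%) held CCCCACCC, and of 39 lower genes with a promoter 6 (15.4%) held each. Over all 27025 mouse genes with promoters of this length the shares were 12.2% and 11.3%, and over their 32851 promoters 10.8% and 9.99%. The letters AAAGGTCA, a site of Nr4a1 and its relatives, were in none of the 92, in 1 of the 39 and in 1.70% of all genes, or 1.51% of all promoters. These are matches of letters in a short window and say nothing of binding.

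Genes of adhesion, by which these cells hold to vessel walls, were among the higher ones. Itgal, the alpha chain of the integrin LFA-1, was read at 579, 768 and 956 CPM in members and at 152, 234 and 258 CPM in classical monocytes. The lowest library of members was above the highest of classical monocytes, and the pooled difference was 3.80-fold. After thinning, an Itgal UMI was found in 70.6% (63.3 to 77.2) of members, 27.1% (20.0 to 35.3) of classical monocytes and 15.7% of B cells, whereas the shares before thinning were 88.8%, 69.7% and 22.2%. Spn, which encodes the sialoglycoprotein CD43 used to sort these cells, stood at 325, 427 and 439 CPM against 86.7, 163 and 106 CPM. Itgax, the alpha chain of CD11c, was read at 87.6, 93.6 and 129 CPM against 10.6, 21.8 and 29.2 CPM. These 3 were the calls among 12 compared genes of the integrin and adhesion list, none of which was lower, with a median log2 difference of 0.68. The beta chain of LFA-1, Itgb2, stood at 582, 462 and 682 CPM against 283, 332 and 353 CPM and was not called, and Itgam, the alpha chain of CD11b, had pooled levels of 332 and 350 CPM.

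Ceacam1, an adhesion receptor with an inhibitory tail, was read at 447, 374 and 427 CPM against 86.7, 95.3 and 133 CPM in classical monocytes, 4.07-fold. Gngt2, a G protein gamma subunit, was at 1408, 1318 and 1369 CPM against 424, 392 and 255 CPM, 3.72-fold. Both were called higher and differed little between the libraries of members. Pglyrp1, which recognises bacterial peptidoglycan, Cd300ld, a receptor of the CD300 family, and Hes1, a repressor downstream of Notch, were higher by 7.08-fold, 7.32-fold and 12.7-fold. Cd300e, an activating receptor of the same family, had 93.3, 160 and 202 CPM in members and 1 UMI in all classical monocytes, too few for a fold. Slc12a2, a sodium, potassium and chloride transporter, had 122, 173 and 142 CPM against 2 UMIs in all classical monocytes. Red pulp macrophages had 140 CPM of Slc12a2, close to the pooled 146 CPM of members.

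Of the receptors of antibody, 1 was called. Fcgr4, the activating receptor of IgG2 antibodies, was read at 229, 171 and 246 CPM in members and at 19.5, 8.17 and 13.3 CPM in classical monocytes, 14.9-fold. Red pulp macrophages had 140 CPM of Fcgr4, beside a pooled 217 CPM in members. The list held 6 compared Fc receptor genes, whose median log2 difference was 0.18. Fcer1g, the signalling chain these receptors share, had pooled levels of 2994 and 2558 CPM, the inhibitory Fcgr2b 199 and 138 CPM, and Fcgr3 190 and 232 CPM. The antibody to CD16/32, which binds the proteins of Fcgr3 and Fcgr2b, had medians of 14 counts in members, 15 in classical monocytes and 13 in B cells. Per the methods, the cells were blocked with TruStain fcX, an Fc receptor block, before the tagged antibodies were added. Its effect on this antibody was not tested, so these medians are not read as levels of the protein.

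Among transcription and survival genes of the lineage, 3 of 14 compared genes were higher and none lower, with a median log2 difference of 0.89. Nr4a1 stood at 252, 306 and 386 CPM in members and at 46.0, 73.5 and 122 CPM in classical monocytes, 4.22-fold, beside B cells at 10.5 CPM. A UMI of it was found in 50.3% of thinned members, 17.9% of thinned classical monocytes and 1% of thinned B cells. Pou2f2, the octamer factor Oct-2 that B cells also use, was at 834, 900 and 1080 CPM against 179, 310 and 457 CPM, with 676 CPM in B cells. Bcl2a1b, a relative of Bcl2 that blocks cell death, was at 195, 171 and 181 CPM against 24.8, 13.6 and 2.66 CPM, though near-identical copies of this gene could share its reads. Cebpb, a factor that non-classical monocytes need, had 1196, 1038 and 1011 CPM against 617, 575 and 566 CPM, and Klf4 had pooled levels of 396 and 173 CPM. Bcl2 itself was at 93.3, 116 and 158 CPM against 12.4, 98.0 and 37.2 CPM. None of these last 3 was called, since the difference stayed under 2-fold in at least 1 library.

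Genes that take up and carry lipid gave 4 higher and no lower calls among 14 compared, with a median log2 difference of 0.61. Cd36, a scavenger receptor that binds oxidised lipoprotein and thrombospondin, stood at 161, 231 and 296 CPM in members and at 5.31, 8.17 and 0 CPM in classical monocytes. A Cd36 UMI was found in 36.7% (29.6 to 44.3) of thinned members, in none of 140 thinned classical monocytes, which allows a share of up to 2.60%, and in 3.20% of thinned B cells. Pparg, the nuclear receptor that drives such genes in macrophages and fat cells, was at 39.6, 71.6 and 48.2 CPM against 0, 10.9 and 5.31 CPM, and lost its call on thinned cells. Fabp4, a fatty acid binding protein of the same cells, was at 113, 171 and 218 CPM in members, and classical monocytes held 1 UMI of it. Red pulp macrophages had 108 CPM of Fabp4, beside a pooled 171 CPM in members. Pltp, which moves phospholipid between lipoproteins, was at 119, 105 and 89.6 CPM against 14.1, 13.6 and 18.6 CPM. Apoe, the apolipoprotein of remnant uptake, was read at 3279, 2276 and 1651 CPM against 481, 1566 and 1246 CPM and was not called, because the log2 differences were 2.77, 0.54 and 0.41 and passed the limit in library 1 alone.

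**Figure D2:**
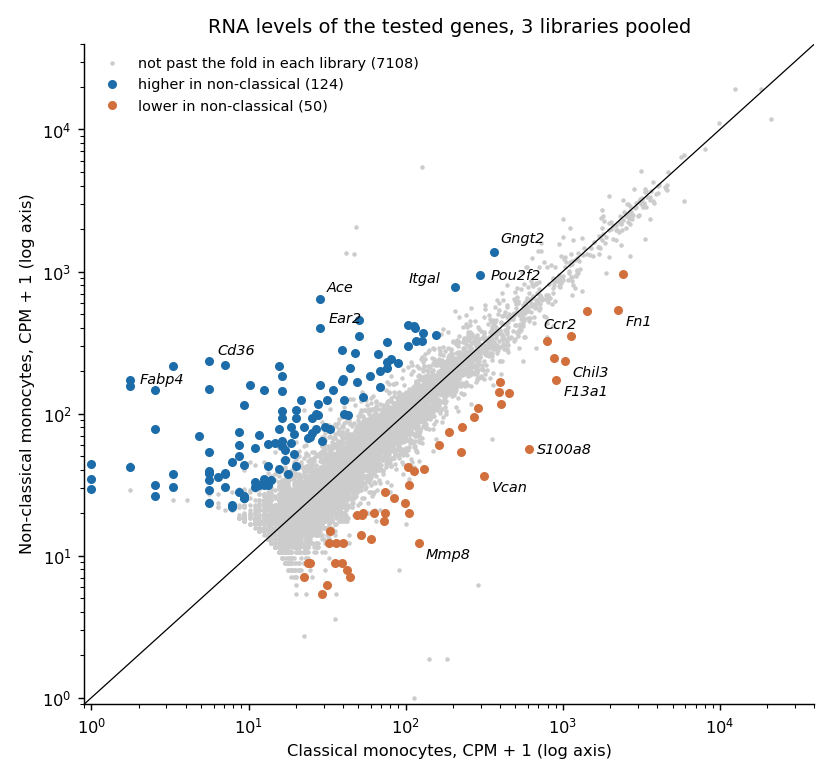
Level of each compared gene in non-classical (vertical) and classical (horizontal) monocytes, 3 libraries pooled, as CPM + 1 on log axes. Blue points are the 124 genes called higher, orange points the 50 called lower and grey points the rest; the line marks equal levels. Ace, Ear2, Cd36 and Fabp4 lie far above the line, and S100a8, Vcan and Mmp8 far below it.

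Among receptors of migration, S1pr5, a sphingosine-1-phosphate receptor used for leaving the bone marrow, was at 98.9, 85.3 and 91.9 CPM in members against 7.07, 21.8 and 21.2 CPM. Cxcr4, which holds leukocytes in the marrow, was at 67.8, 68.8 and 91.9 CPM against 28.3, 30 and 39.8 CPM. Both were called higher, although Cxcr4 lost its call when each cell was given equal weight. Ccr1, a receptor of inflammatory chemokines, had 5.65, 8.26 and 4.59 CPM against 49.5, 27.2 and 50.5 CPM and was called lower. With Ccr2, a gene of the choice of classical monocytes, the chemokine list gave 2 higher and 2 lower of 11 compared genes and a median log2 difference of -0.12.

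Genes reported to bind PF4 or to act with it were looked at because the study gave PF4 to mice. Of 7 compared, Thbd, the thrombin receptor thrombomodulin, was higher at 48.0, 66.1 and 73.5 CPM against 10.6, 16.3 and 21.2 CPM, and Ccr1, given above, was lower. Both calls were lost on thinned cells. Cxcr3 was low, with 2.60 CPM in members, 9.93 CPM in classical monocytes and 6.12 CPM in B cells. The receptor Lrp1 had 486, 523 and 528 CPM against 377, 482 and 452 CPM. Which library held cells of PF4-treated mice is not known here, so these values say nothing of a response to it.

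Few classical marker genes were called outside the choice of cells. Vcan, Fn1, F13a1, Ccr2 and Ly6c2 chose the classical monocytes, so that lower levels of them in members follow from the choice. Outside them, Chil3, a chitinase-like secreted protein, stood at 311, 330 and 89.6 CPM in members and at 1427, 779 and 699 CPM in classical monocytes. Mmp8, a collagenase, was 10.6-fold lower at 14.1, 13.8 and 6.89 CPM against 147, 103 and 95.6 CPM. The antiprotease Slpi, the membrane protein Plp2 and the vesicle protein Stxbp6 were lower by 4.23-fold, 3.84-fold and 3.45-fold. Slpi and Plp2 were also lower in members than in B cells, at pooled levels of 52.9 against 126 CPM and 19.1 against 59.5 CPM. Their levels in members are therefore not read as expression. Plac8, on the same list of classical markers, was nearly level at 2378 and 2624 CPM pooled.

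Of the Ly6 and S100 list, 3 of 9 compared genes were lower and none higher, with a median log2 difference of -1.06, and the calls were S100a10, S100a8 and Ly6c2, the last of which chose the classical monocytes. S100a10, the partner of annexin A2, was lower at 254, 237 and 248 CPM against 990, 863 and 717 CPM. S100a6 had 1882, 1874 and 1410 CPM against 3337, 3605 and 2999 CPM and stayed under the limit in 2 libraries. S100a8, an abundant protein of neutrophils, was at 158, 5.50 and 13.8 CPM against 1024, 106 and 486 CPM, but B cells had 1648, 285 and 214 CPM of it. Its level in members was thus under that in cells that should lack it in every library, and it is not read as expression.

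Complement genes gave 2 calls, both lower, among 7 compared, with a median log2 difference of 0.46. C3, the central component, was at 184, 129 and 117 CPM in members against 423, 297 and 441 CPM, and Cfp, which encodes properdin and stabilises the C3 convertase, was at 8.48, 24.8 and 23.0 CPM against 72.5, 144 and 114 CPM. Both kinds of monocyte had C3 far above the 2.15 CPM of B cells. Members held almost none of the C1q RNA of red pulp macrophages. C1qa stood at 14.8 CPM in members and 1600 CPM in macrophages, and C1qb at 27.8 and 1257 CPM.

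Several programmes showed few calls or none. Over all genes compared 1.7% were called higher and 0.687% lower, so the absence of a call in so short a list is not read as a result. In the interferon list none of 14 compared genes was called, with a median log2 difference of -0.50, and neither was any of 9 in the Toll-like receptor list, 12 in the lysosome list, 11 in the antigen presentation list or 5 in the heat shock list. Tlr7, the sensor of single-stranded RNA through which these cells are known to patrol the kidney, was at 175, 154 and 152 CPM against 58.4, 95.3 and 106 CPM. Il1b, an inflammatory cytokine, was the call among 11 compared genes of NF-kB, TNF and interleukin 1, at 90.4, 82.6 and 115 CPM against 26.5, 27.2 and 26.6 CPM, while Tnf was low in both kinds at 17.4 and 8.40 CPM. Tgfbr1, a receptor of TGF-beta, was the call among 11 growth factor receptor and signalling genes, 4.31-fold higher. In the glycolysis list Eno3, a gene of the choice, was the call among 11, and in the cell cycle list none of 5 was called, though Mki67 had 226, 8.26 and 2.30 CPM and nearly all its UMIs of library 1 lay in a single cell. Fos was the call among 9 immediate early genes, 2.73-fold lower, and lost it on thinned cells.

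Markers of other cells were counted as well. The macrophage genes Cd5l, Cd163 and Mertk stood at 1.74, 0.868 and 0.868 CPM, Timd4 and Vcam1 had no UMI, and Vcam1 was 0 by choice. Spic, a factor of red pulp macrophages, was the call of that list at 33.9, 35.8 and 52.8 CPM against 15.9, 16.3 and 2.66 CPM, beside 439 CPM in macrophages. It lost its call in 6 alternative settings, among them leaving out library 3. The neutrophil list, which holds S100a8 and S100a9, summed to 483, 129 and 115 CPM in members and to 4593, 769 and 517 CPM in B cells, and of its 10 genes only Ly6g and Mmp9 had no UMI. The conventional dendritic cell list, which holds Itgax, summed to 254, 306 and 310 CPM in members, 258, 221 and 401 CPM in classical monocytes and 469, 399 and 451 CPM in B cells, and Itgax was its call. The erythroid list summed to 33219, 55.0 and 113 CPM in members, and most of it in library 1 lay in a single cell described with the libraries. Of the basophil list, 5 of 6 genes had no UMI, and Cd79a had none by choice. Igkc, the light chain of B cells, was at 167, 358 and 404 CPM in members and at 81.4, 338 and 284 CPM in classical monocytes, beside 19695 CPM in B cells. The B cell list summed to 427, 795 and 900.4 CPM in members and to 341, 727 and 752 CPM in classical monocytes, and the part of these in any result was not tested. The T cell genes Cd3d and Cd3e stood at 39.0 and 25.2 CPM.

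Surface protein took no part in the choice of members and was read independently of RNA. Counts are given as the median per cell, and the medians of all antibody counts per cell were close, 2119 in members and 2350 in classical monocytes. By the median, 10 of 34 antibodies were higher and 2 lower in members in all 3 libraries, of which CD11b and CD11c were at least 1.5-fold higher and Ly-6C at least 1.5-fold lower in each. The Ly-6C antibody, whose medians were 230.5, 180 and 213.5 counts in members, 742, 606.5 and 621 in classical monocytes and 146, 162 and 186 in B cells, placed members close to B cells. The interquartile ranges, 158.5 to 370.5 and 409 to 918.5, did not overlap between kinds of monocyte, though single cells did. Ly6c2 RNA was among the 5 genes that chose the classical monocytes, so this difference is partly set by the choice of the cells compared. The antibody may also bind the product of Ly6c1, a near-identical copy of Ly6c2, whose RNA stood at 0.868 CPM in members and 1.53 CPM in classical monocytes.

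The CD11b antibody had medians of 106.5, 111 and 125 counts in members against 69, 71 and 79.5, ratios of 1.54, 1.56 and 1.57, and 3 in B cells. The difference in protein was alike in every library, while Itgam RNA of the same protein was level between kinds. CD11c had medians of 24, 21 and 28.5 counts against 15, 12.5 and 12.5, in the direction of its RNA, beside 157.5 in conventional dendritic cells and 10 in B cells. SIRPa, the receptor of the signal CD47, had medians of 76.5, 57 and 74 against 45, 39 and 41.5, and the leukocyte antigen CD45 had 332.5, 300 and 324.5 against 237, 225 and 194.5. PD-L1, the ligand of an inhibitory receptor of T cells, had 24.5, 22 and 23 against 14, 17 and 16. CD24, a small glycoprotein of many leukocytes, was the other lower antibody at 123.5, 133 and 139.5 against 239, 171.5 and 192, and B cells had 377.

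F4/80, an antigen of macrophages, was higher in members by the median in each library, with pooled medians of 28 counts in members, 21 in classical monocytes and 79 in macrophages, and the same held for I-A/I-E, with 44, 33 and 120 counts. The remaining antibodies with higher medians in each library were CD106 (24, 22 and 23 counts against 18, 20 and 19.5), CD86 (20.5, 16 and 17 against 17, 15 and 16.5) and CD38 (21.5, 16 and 19 against 17, 15.5 and 14.5), all by less than 1.5-fold. CX3CR1, of which more RNA was read in members, had medians of 20, 19 and 20 counts against 19, 19 and 18.5, beside 14 in B cells. CCR2 had pooled medians of 41 and 39 counts, beside 40 in B cells, so that antibody did not rise above its level in cells that should lack the protein. CD44, an adhesion receptor of hyaluronan, had 504 and 509 counts, far above the 59 of B cells. The pooled medians of CD64, CD4 and Ly-6G differed by at most 1 count between the kinds of monocyte.

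**Figure D3:**
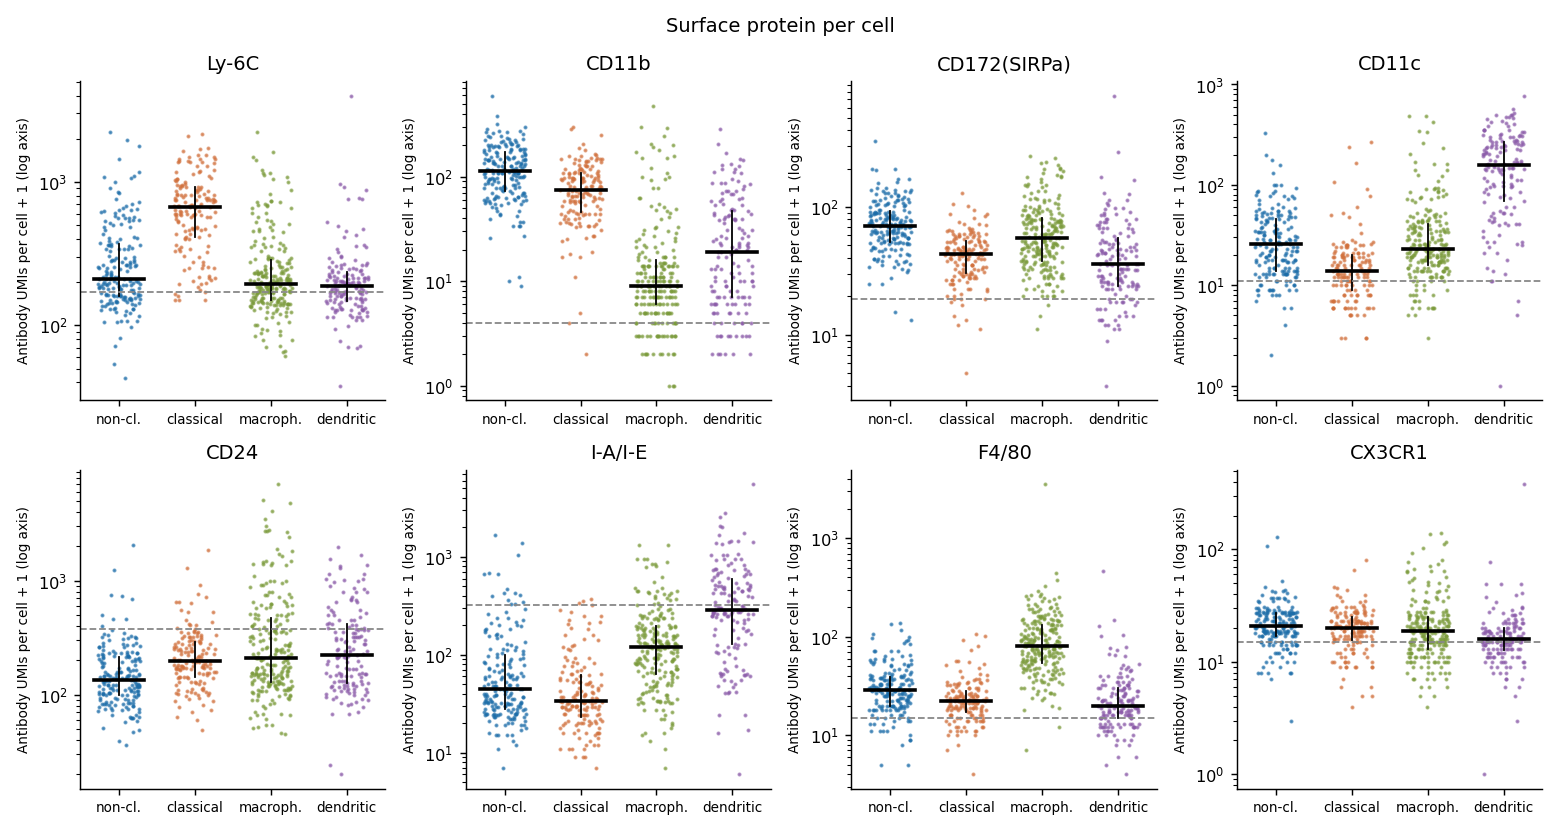
Antibody counts of single cells, as counts + 1 on a log axis, for 8 antibodies in non-classical monocytes, classical monocytes, red pulp macrophages and conventional dendritic cells. Thick bars are medians, thin bars the quartiles and the dashed line the B cell median. Ly-6C has medians of 211 and 665 counts in the 2 kinds of monocyte and CD11b of 111 and 74, while CX3CR1 has 20 and 19.

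The members were not all alike. None of the 5 classical genes was seen in 81 of them (24, 24 and 33 by library), 1 was seen in 45 and 2 or more in 61 (23, 19 and 19). The median depth of these sets was 4068, 5117 and 8142 UMIs, so that more classical genes were seen in deeper cells. Ly-6C protein had medians of 170, 193 and 497 counts across the sets, and since Ly6c2 was among the 5 genes this order is partly set by the split. In the cells with 2 or more classical genes the library medians were 433, 408 and 533 counts, above those of the cells with none, which were 163, 138 and 197. CD24 followed, with 101, 130 and 214 counts, while CD11c was lower in the last set, with 30, 34 and 13. CD11b, at 108, 107 and 130 counts, varied less.

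Some RNA outside the split moved with it. Itgal was read at 1250, 806 and 428 CPM across the sets with 0, 1 and 2 or more classical genes, Spn at 698, 381 and 193 CPM, Ear2 at 600 CPM, 518 CPM and 189 CPM, and Cd36 at 512, 191 and 54.0 CPM. The set with 2 or more classical genes was thus lowest for each of the 4. The set with 1 classical gene did not lie between the others for every gene. In the same order H2-Aa was at 921, 3608 and 2066 CPM, Cd209a at 21.2, 210 and 5.78 CPM, and Cx3cr1 at 573, 685 and 461 CPM. When all cells were thinned to 2000 UMIs before the split, the sets held 95, 43 and 39 cells and Ly-6C had medians of 178, 255 and 540 counts, CD24 of 107, 133 and 218, and CD11c of 30, 23 and 13. The order of the Ly-6C medians was the same with and without thinning. The part of doublets in this pattern was not tested.

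**Figure D4:**
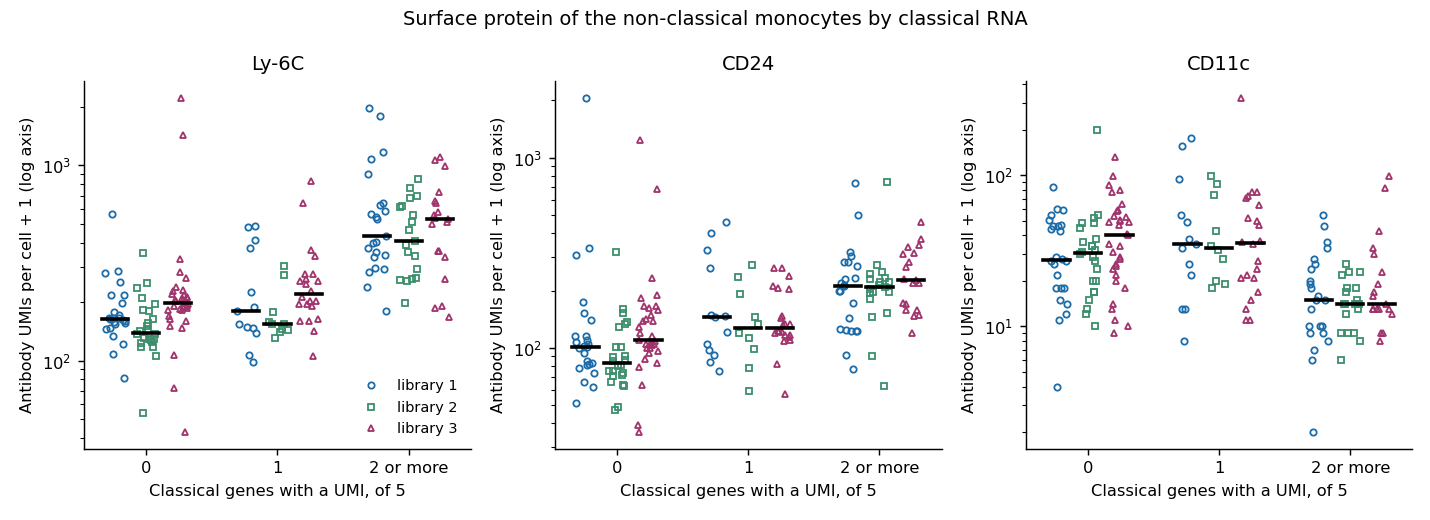
Ly-6C, CD24 and CD11c antibody counts of the 187 members, as counts + 1 on a log axis, by how many of 5 classical genes had a UMI. Each point is a cell, symbols mark libraries and bars the library medians. Ly-6C medians are 433, 408 and 533 counts with 2 or more genes and 163, 138 and 197 with none.

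Cells just inside and outside the limit on the 4 choosing genes are described without a test. Cells that met all other limits numbered 245 with none of the 4 genes, 115 with 1, 59 with 2, 67 with 3 and 61 with 4, and those from 2 upwards are the members. The median depths of these sets were 3209, 7709, 7043, 4724 and 5243 UMIs. Ly-6C medians were 275, 464, 337, 217 and 190 counts, highest with 1 gene, and CD11b medians 61, 75, 97, 115 and 118. Cx3cr1 RNA stood at 185, 264, 413, 592 and 674 CPM. Just inside the limit, with 2 genes, Ear2 was at 144 CPM and Ccr2 at 913 CPM, and just outside it, with 1 gene, they were at 40.9 and 1007 CPM.

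MHC class II split the members as well. The limit for I-A/I-E protein was the 5th percentile of the B cells of each library, 78.75, 78 and 56 counts in libraries 1, 2 and 3. It was reached in 64 members (19, 16 and 29), that is 31.7%, 30.2% and 39.2% of these libraries. The limit was lowest in library 3, so these shares do not rest on a common limit and are not compared. H2-Aa RNA, of a class II chain, stood at 4755 CPM in the 64 members and at 173 CPM in the other 123. Cd74, the chaperone of class II, was at 11018 and 1104 CPM. Protein and RNA of class II thus went together between the sets. The class II positive members were deeper, with a median of 7185.5 against 4644 UMIs, and had more Ly-6C protein, with medians of 270 against 195 counts. Other antibody medians were higher in them too, CD45 at 404.5 against 292 counts and CD24 at 191 against 116. RNA of classical genes was mixed, with Ly6c2 at 207 against 452 CPM, Fn1 at 224 against 744 CPM and Ccr2 at 642 against 452 CPM. Non-classical RNA outside the choice was lower in them, with Itgal at 512 against 965 CPM, Spn at 209 against 531 CPM and Cx3cr1 at 384 against 659 CPM. The limit was also reached in 33 of 155 classical monocytes, whose H2-Aa stood at 3542 CPM. Cd209a, a lectin of monocyte-derived and type 2 dendritic cells, was seen in 10 members (1, 3 and 6), whose median I-A/I-E was 234 counts. The rule for conventional dendritic cells was also met by 8 members and 14 classical monocytes. Summed over members, H2-Aa was at 2012, 2031 and 2058 CPM, so the libraries did not differ, against 1266, 1029 and 938 CPM in classical monocytes and 6156 CPM in dendritic cells.

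The libraries of members were set side by side for 5159 genes with 30 or more counts, without knowing which group each held. Genes at least 2-fold apart with intervals that did not overlap numbered 88 (1.71%) between libraries 1 and 2, 95 (1.84%) between 1 and 3 and 49 (0.95%) between 2 and 3. A single cell of library 1 bore on these counts. It held 11443 of the 11699 haemoglobin UMIs of its library and 75 of its 80 Mki67 UMIs, and Mki67, Hist1h2ae, Slc4a1 and Car2 were called between libraries with that cell and not without it. Hbb-bs in library 1 went from 17758 to 355 CPM without it, under the 6321 CPM of B cells of that library, and the counts of genes were 62, 71 and 49. Values between libraries are given without it from here on.

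The next 5 genes are given because they were low in library 2. Ly6c2 was at 523, 99.1 and 448 CPM in libraries 1, 2 and 3, from 18, 12 and 22 cells with a UMI, and at 324, 76.7 and 310 CPM once the top cell of each library was left out. Classical monocytes also had least Ly6c2 in library 2, at 1509, 716 and 956 CPM, and the Ly-6C protein of members, given above, had its lowest median there too. Ly6i, a relative of Ly6c2, was at 197, 44.0 and 140 CPM, and Fcgr1, the high-affinity IgG receptor CD64, at 62.7, 13.8 and 57.4 CPM from 14, 2 and 16 cells. Irf7, the regulator of interferon production, was at 191, 66.1 and 156 CPM and Bst2, the virus tether tetherin, at 215, 71.6 and 165 CPM. A single cell held 25 of the 64 Irf7 UMIs of library 1, and another 20 of the 68 of library 3. Without the top cell of each library Irf7 was at 120, 59.2 and 114 CPM. The interferon list summed over all its genes, with all members in, was at 5921, 4726 and 5297 CPM in members, 8601, 4849 and 6794 CPM in classical monocytes and 767, 585 and 789 CPM in B cells, so library 2 was lowest in each kind of cell.

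Other genes set library 1 or 3 apart. Hp, haptoglobin, fell in order at 487, 275 and 161 CPM across libraries 1, 2 and 3, with libraries 1 and 3 past the limit, and classical monocytes had 821, 613 and 529 CPM. Chil3 was at 328, 330 and 89.6 CPM, low in library 3. With all members in, those with 2 or more classical genes made up 38.3%, 35.8% and 25.7% of libraries 1, 2 and 3. Chil3 stood at 466 CPM in them and at 23.9 CPM in members with none, and the part of this in the difference was not tested. Il1rn, the antagonist of the interleukin 1 receptor, was at 59.7, 16.5 and 13.8 CPM from 9, 3 and 5 cells. S100a8 and S100a9, high in library 1 at 164 and 170 CPM, were lower in members than in B cells in every library, with 1648 and 1824 CPM in B cells of library 1, and are not read as expression. Apoe was at 3461, 2276 and 1651 CPM, past the limit between libraries 1 and 3 at 2.10-fold, and at 1.99-fold, short of it, with the haemoglobin-rich cell in. B cells followed the same order for Apoe, at 549, 334 and 158 CPM, while classical monocytes had 481, 1566 and 1246 CPM. Whether the order is one of whole libraries was not tested.

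The next 4 genes, high in members against classical monocytes, are given because they were highest in library 3. Cd300e was at 95.6, 160 and 202 CPM in libraries 1, 2 and 3, past the limit between 1 and 3. Itgal was at 612, 768 and 956 CPM and Cd36 at 170, 231 and 296 CPM, both under 2-fold. Itgal and Cd36 were lower in members with 2 or more classical genes, whose share was least in library 3, and the part of this was not tested. Ace, a gene of the choice, was at 549, 641 and 724 CPM. Other genes higher in members had another order, among them Slc12a2, highest in library 2, and Pltp, lowest in library 3. Only 1 library stands behind each value.

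Some differences between libraries rested on very few cells. Cxcl9, a chemokine induced by interferon-gamma, was at 230 CPM in library 1, 44.0 in library 2 and 80.4 in library 3, from 4, 1 and 2 cells. Without the top cell of each library it was at 88.7, 0 and 7.0 CPM. Clec4e, the receptor Mincle, was at 167, 13.8 and 45.9 CPM with 46 of its 56 UMIs in library 1 in a single cell, and Marcksl1 at 260 CPM, 55.0 CPM and 32.2 CPM with 64 of 87 in a single cell. Cd209a, at 20.9, 44.0 and 96.5 CPM, came from 1, 3 and 6 cells. Hmox1, haem oxygenase of haem breakdown, was at 149 CPM in library 3, where 36 of its 65 UMIs lay in a single cell.

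**Figure D5:**
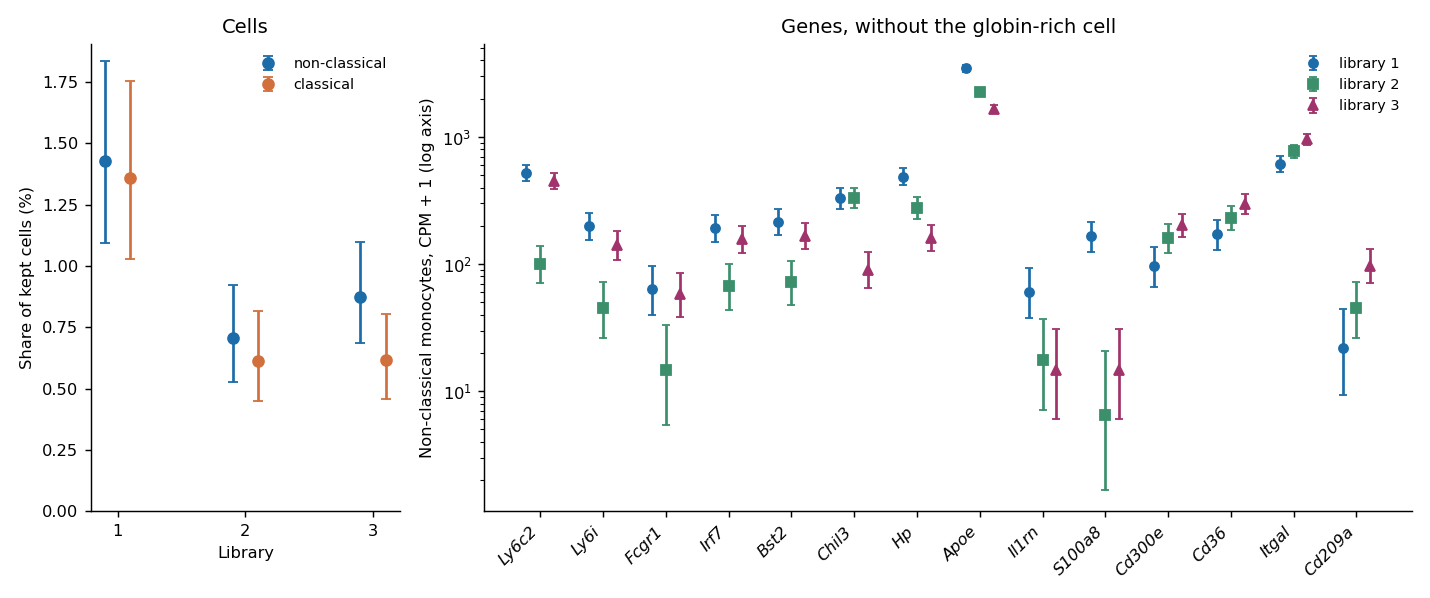
Left, share of kept cells that were non-classical or classical monocytes in each library, in percent. Right, RNA of 14 genes in the non-classical monocytes of each library as CPM + 1 on a log axis, without the haemoglobin-rich cell; bars are exact 95% intervals for counting error. Ly6c2 is at 99.1 CPM in library 2 and above 440 CPM in the other libraries, and Hp and Apoe are highest in library 1.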

How the data were processed

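Splenocyte RNA and surface protein of 3 groups were measured by CITE-seq, 1 RNA and 1 antibody library per group, each from pooled mice. The authors deposited whole-number UMI counts per feature and barcode in 1 matrix of 31053 genes and 34 antibodies, made with Cell Ranger (5.0.1 in the file header) and its aggregation step on mm10; per the methods, Seurat was used afterwards. Whether aggregation equalised the libraries' depth is not stated in the labels, header or methods.

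Counts were used as deposited. Cells were kept at 300 to 5000 genes and at most 10% mitochondrial UMIs. Counts were summed per library and cell type and given as CPM with exact Poisson 95% intervals, shares with Clopper-Pearson intervals (scipy 1.17.1). Genes with at least 30 counts were compared at 2-fold, with counts under 3 set to 3, and no test was run, since cells are not replicates. Where shares of cells with a UMI were compared, each cell was also thinned at random to 2000 UMIs. Doublets were marked by Scrublet (scanpy 1.11.5) and kept. Intervals and floors cover counting error only.

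The members and the gene lists were chosen with earlier results of these data known. Named genes are those of the rules, the leading members of each list, and the 10 with the largest smallest-library ratio in each direction and the 10 largest between libraries; Cd5l, Timd4, Mertk, Cd163, Ly6g, Mmp9, Ly6i, Clec4e, Marcksl1, Cxcl9 and a few other genes were named after their values were seen. Of the 31053 genes, 31011 matched the mm10 annotation used for positions. Promoters are from RefSeq on GRCm38.p6. A few genes are not reported here.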

Additional observations from a re-analysis of the deposited data

How the results depend on the processing

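The share of kept cells depended on the limits more than on counting error. For libraries 1, 2 and 3 and all together it was 2.33%, 1.16%, 1.38% and 1.5% with at least 1 of the 4 genes, 0.953%, 0.506%, 0.592% and 0.635% with at least 3, 2.55%, 1.57%, 1.81% and 1.87% with no limit on Vcam1 or Cd79a, and 1.09%, 0.528%, 0.651% and 0.696% with no mitochondrial limit. With a 5% mitochondrial limit it was 0.943%, 1.18% and 1.20% in libraries 2 and 3 and in all, and with members that held a UMI of genes marking T, B or NK cells or neutrophils left out 0.651% in library 3 and 0.724% in all. Leaving out a library in turn gave 0.796% to 1.06%. Library 1 had the highest share in each of these settings that gives all libraries.

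Genes higher than in classical monocytes numbered 70 with at least 100 counts, 245 at 1.5-fold and 71 on thinned cells, and leaving out a library gave 137 to 158. Lower genes numbered 79 with at least 3 of the 4 genes, 32 with at least 100 counts and 143 at 1.5-fold, and leaving out a library gave 78 to 80. Between libraries 1 and 2 the counts were 26 with at least 100 counts, 55 with at least 3 of the 4 genes and 18 on thinned cells, between 1 and 3 they were 35 with at least 100 counts, 170 at 1.5-fold and 26 thinned, and between 2 and 3 they were 17, 79 and 13 in the same order of settings. Fewer genes or counts remain to be compared at 100 counts and on thinned cells. Of 242 genes compared with classical monocytes, none changed direction; on thinned cells 10 lost a call and 5 gained one. Ly6c2 lost its call on thinned cells, with each cell given equal weight and without members holding a lineage UMI, and the cause was not tested. Leaving out the haemoglobin-rich cell, thinning before the split by classical genes and leaving out the top cell of a gene were chosen after seeing the data. No paired analysis was possible because each group has 1 library and no suffix is tied to a group. Depth limits genes under about 30 summed counts, which were not compared.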
